A study of Homo sapiens with 4 samples.

Results

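Inflammatory chemokines and cytokines were examined in liver cancer cells with and without a short hairpin RNA (shRNA) against WDR4. The 10 genes were taken by symbol, CXCL1, CXCL2, CXCL3, CXCL5, CXCL8, CCL2, CCL20, IL6, IL11 and LIF, and all 10 were found among the 19225 entries of the deposited table. RNA-seq was performed on 4 libraries, 1 each from HCC-LM3 cells transduced with sh-WDR4-2, HCC-LM3 cells transduced with sh-NC, Huh-7 cells transduced with sh-WDR4-2 and Huh-7 cells transduced with sh-NC. HCC-LM3 is a human hepatocellular carcinoma (HCC) line of high metastatic capacity, Huh-7 is a human hepatoma line, WDR4 is the partner subunit of a tRNA methyltransferase, sh-WDR4-2 is a hairpin against it and sh-NC is a scrambled hairpin. All 4 libraries carry 48 h in their labels. The methods describe stable lines made with lentivirus, each of which is a single selected population. The treatment labels differ from this: the HCC-LM3 sh-WDR4-2 library is labelled as transduced with WDR4, and the Huh-7 sh-WDR4-2 library as transfected with siWDR4. The extraction text of both Huh-7 libraries names retinas. With 1 library per cell line and shRNA, the hairpin has no repeat inside either line, and the 95% intervals given there cover counting error alone. The libraries are bulk RNA, in which fewer cells that express a gene and less of its mRNA per cell cannot be told apart.

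Chemokines are small secreted proteins that draw leukocytes along a gradient through G protein-coupled receptors. CXCL1, CXCL2, CXCL3, CXCL5 and CXCL8 attract neutrophils through CXCR1 and CXCR2, CCL2 attracts monocytes through CCR2, and CCL20 attracts cells that carry CCR6. IL6, IL11 and LIF are cytokines of the IL-6 family, which share the receptor subunit IL6ST (gp130) and signal through JAK kinases and STAT3, and IL6 is a main inducer of the acute-phase proteins of the liver. Most of these genes are silent or weakly transcribed in resting cells, are induced through NF-κB and AP-1 sites near their start, and give mRNAs that are quickly degraded.

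The short promoter stretches are shown because an NF-κB-like motif is what most of these genes have in common in sequence. RefSeq promoters (GRCh38.p14) matched 8 of the 10 genes, all except CCL2 and LIF. The letters GGNNNTTCC were searched on both strands of the 250 bases before the start site, and 7 of the 8 promoters held a match, against 17.1% of 35116 promoters. In the 30 bases printed for each gene, 5′ to 3′ on the strand of the gene, capitals mark the match.
CXCL1, chr4:73869305-73869334, plus strand: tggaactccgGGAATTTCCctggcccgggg
CXCL2, chr4:74099253-74099282, minus strand: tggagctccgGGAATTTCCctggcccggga
CXCL3, chr4:74038748-74038777, minus strand: tggagctccgGGAATTTCCctggcccggcc
CXCL5, chr4:73998748-73998777, minus strand: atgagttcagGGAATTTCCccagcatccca
CXCL8, chr4:73740468-73740497, plus strand: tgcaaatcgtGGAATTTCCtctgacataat
CCL20, chr2:227813753-227813782, plus strand: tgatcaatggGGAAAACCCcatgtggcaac
IL6, chr7:22727118-22727147, plus strand: atcaaatgtgGGATTTTCCcatgagtctca
IL11 held no such match in this window. Its stretch is printed around a match to the AP-1-like letters TGANTCA, also searched on both strands, which were in 2 of the 8 promoters, IL11 and CXCL8, and in 6.57% of 35116 promoters.
IL11, chr19:55370541-55370570, minus strand: ggcagggagggTGAGTCAggatgtgtcagg
The NF-κB-like match began between 72 and 91 bases before the start in all 7 genes, with a further match 53 bases before the start in CXCL1, CXCL2 and CXCL3. A match is a description of letters, and the counts hold no measure of what binds there.

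The symbols of 2 of the 10 genes did not match the lengths of their own entries, which bears on every level given for CXCL3 and CXCL8. The deposited FPKM divide each count by a transcript length, so the length behind each entry can be read back. The entry named CXCL3 had a length of 9914 bases, whereas the longest GENCODE 29 transcript of CXCL3 is 1641 bases and that of ACACA, which encodes acetyl-CoA carboxylase 1, is 9961 bases. The entry named ACACA had a length of 1159 bases. The entry named CXCL8 had a length of 9250 bases, whereas the longest CXCL8 transcript is 1705 bases and that of ACACB, which encodes acetyl-CoA carboxylase 2, is 9360 bases. The entry named ACACB had a length of 1705 bases, the same as an annotated CXCL8 transcript. The entries of the table stand in the order of a hash table of symbols, and 18993 of 19225 symbols stood in that order while 232 (1.21%) did not. CXCL3, CXCL8, ACACA and ACACB were among the 232, the place of the entry named CXCL3 pointed to ACACA and that of the entry named ACACA to CXCL3, and CXCL8 and ACACB pointed to each other in the same way. Over the whole table, an entry longer than the longest GENCODE transcript of its symbol by more than 1.5 times occurred in 58 of 197 symbols out of order (29.4%), and in 236 of 16010 in order (1.47%). The remaining 8 genes stood in order, and the 7 of them with a readable length were within 1.5 times of their longest annotated transcript, such as 3880 bases for LIF against 3969, 1205 bases for CXCL2 against 1218 and 841 bases for CCL20 against 839. Values of CXCL3 and CXCL8 are therefore given as deposited and also from the entries named ACACA and ACACB, called exchanged back below, a choice made after the data had been seen. How the symbols came to differ was not tested.

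**Figure D1:**
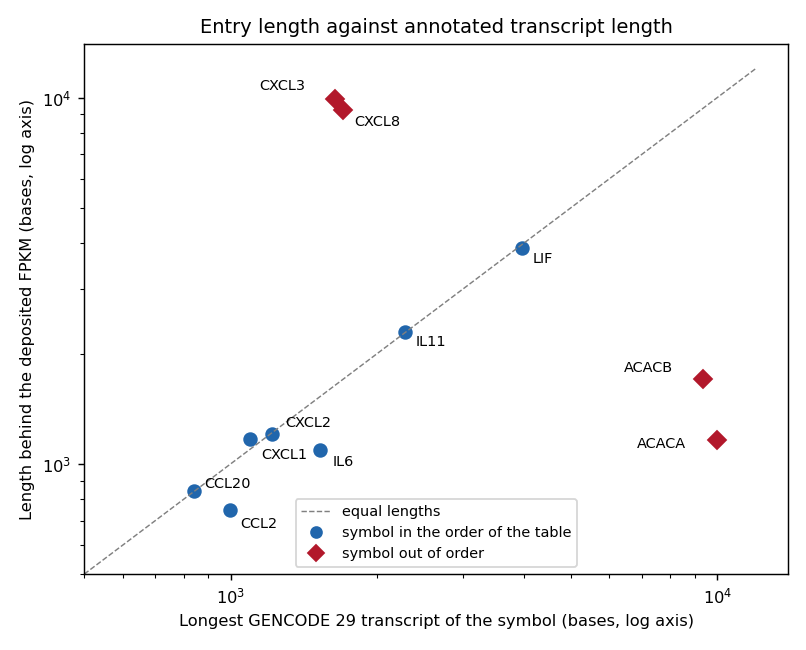
Length behind the deposited FPKM of each entry (y axis, bases, log scale) against the longest GENCODE 29 transcript of the same symbol (x axis, bases, log scale) for the chemokines and cytokines with a readable length and for ACACA and ACACB. CXCL3 (9914 against 1641 bases) and CXCL8 (9250 against 1705 bases) lie far above the line of equal lengths, ACACA and ACACB lie far below it, and the other 7 genes lie within 1.5 times of it.

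Library totals ran between 29807047 counts in the HCC-LM3 sh-WDR4-2 library, which was the one sequenced on lane 4, and 40572251 counts in the HCC-LM3 sh-NC library, and 3 counts, taken as the floor, correspond to 0.0690 to 0.0940 CPM (counts scaled to library size, normalized by TMM). WDR4 had 1009 counts in the HCC-LM3 sh-WDR4-2 library, against 1604 in the HCC-LM3 sh-NC library, a normalized ratio of 0.856 (0.791 to 0.927, 95% counting interval). The Huh-7 libraries held 990 WDR4 counts with sh-WDR4-2, against 1077 with sh-NC, a ratio of 0.987 (0.904 to 1.08), so the libraries are named by their labels throughout. Defining hepatocyte markers were near 0: ALB and TTR had 0 counts in all 4 libraries, AFP at most 6 and APOC3 at most 2, while HNF4A had 4 and 8 counts in the HCC-LM3 libraries and 1980 and 2033 in the Huh-7 libraries. PTPRC, CD3E, MS4A1 and MPO, which mark leukocytes, had 0 counts in all 4 libraries, and 9 of 16 immune cell markers had 0 counts in both libraries of each line. Their summed level was 13.5 CPM with sh-WDR4-2 and 11.9 CPM with sh-NC in HCC-LM3 cells, and 23.4 CPM with sh-WDR4-2 and 30.2 CPM with sh-NC in Huh-7 cells, mostly CD68. Among markers of fibroblasts, COL3A1 had 1209 and 1379 counts in the HCC-LM3 libraries and 0 in both Huh-7 libraries, and LUM had 823 and 1071 against 0 and 2. These are among the markers that differed most. The 13 fibroblast and endothelial markers together came to 285 CPM with sh-WDR4-2 and 275 CPM with sh-NC for HCC-LM3. For Huh-7 the same 13 came to 137 CPM with sh-WDR4-2 and 133 CPM with sh-NC. Of the 7 markers tested between the lines by edgeR, 6 were called higher for HCC-LM3 and 1 lower.

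Few of the 10 genes were expressed, and the lines differed in which. Taking a mean of 1 CPM or more in a line as expressed, 5 of 10 entries qualified in HCC-LM3 cells as deposited, CXCL2, CXCL3, CXCL8, CCL2 and LIF, and 6 of 10 in Huh-7 cells, CXCL2, CXCL3, CXCL8, IL6, IL11 and LIF. With the 2 symbols exchanged back, 3 remained in HCC-LM3 cells, CXCL2, CCL2 and LIF, and 4 in Huh-7 cells, CXCL2, IL6, IL11 and LIF. In each line 3 of the 10 genes were at or under the floor in both libraries: CXCL1 and CXCL5 in both lines, CCL20 in HCC-LM3 cells and CCL2 in Huh-7 cells.

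**Figure D2:**
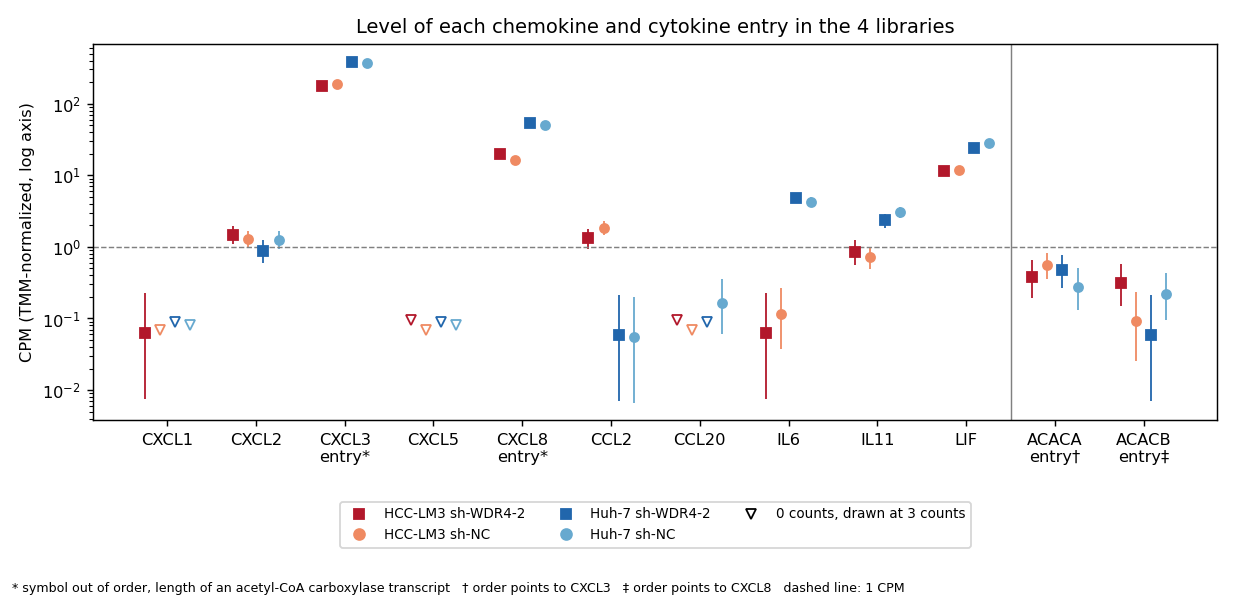
Level of each entry in the 4 libraries in CPM (TMM-normalized, log axis), with squares for sh-WDR4-2, circles for sh-NC and bars for the 95% counting interval. Open triangles stand for 0 counts and are drawn at 3 counts, the dashed line is at 1 CPM, and right of the grey line are the entries named ACACA and ACACB, whose place points to CXCL3 and CXCL8. The entries named CXCL3 and CXCL8 lie at 16.4 CPM or more in every library, while the exchanged entries lie at 0.552 CPM or less.

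Of the neutrophil attractants, CXCL2 was the only one with a clear signal in an entry that stood in order. CXCL2 had 47 counts (1.47 CPM) with sh-WDR4-2, against 55 counts (1.27 CPM) with sh-NC, in HCC-LM3 cells. The Huh-7 libraries had 30 counts (0.879 CPM) with sh-WDR4-2, against 46 counts (1.26 CPM) with sh-NC. Its ratio of sh-WDR4-2 over sh-NC was 1.16 (0.771 to 1.75) in HCC-LM3 and 0.700 (0.427 to 1.13) in Huh-7 cells, and both intervals include 1. CXCL1, its close paralog, had 2 counts in the HCC-LM3 sh-WDR4-2 library and 0 in the other 3 libraries, which is under the floor. CXCL5 had 0 counts in all 4 libraries, where the floor is 0.0940 CPM in the shallowest one.

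Reads of CXCL1, CXCL2 and CXCL3 can be hard to assign, since the 3 coding sequences are near copies of each other. All 3 are 321 bases long and CXCL2 and CXCL3 share 94.4% of them, CXCL1 and CXCL2 93.5%, and CXCL1 and CXCL3 90.7%. The longest coding run that CXCL2 and CXCL3 share without a difference is printed to show how far a read can fit both; it has 97 bases and starts at base 9 of the CXCL2 coding sequence on chromosome 4 (GENCODE 29, GRCh38).
CXCL2 and CXCL3: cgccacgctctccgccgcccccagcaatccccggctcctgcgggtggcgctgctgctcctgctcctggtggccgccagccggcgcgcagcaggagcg
Such stretches were short beside the transcripts: of the 50-base windows of the CXCL2 transcript, 4.62% also occurred in CXCL3 and 5.13% in CXCL1. Summed over the 3 genes with CXCL3 exchanged back, HCC-LM3 cells had 61 counts with sh-WDR4-2 and 79 with sh-NC, a ratio of 1.05 (0.740 to 1.49). Huh-7 cells had 46 counts with sh-WDR4-2 and 56 with sh-NC, a ratio of 0.882 (0.584 to 1.33).

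The entry named CXCL3 was the highest of the 10, at 176 CPM with sh-WDR4-2 and 188 CPM with sh-NC in HCC-LM3 cells, and 386 CPM with sh-WDR4-2 and 372 CPM with sh-NC in Huh-7 cells. Its ratio was 0.935 (0.903 to 0.967) in HCC-LM3 and 1.04 (1.01 to 1.06) in Huh-7 cells, a small difference on opposite sides of 1. Its length is close to that of the longest ACACA transcript, as given above, though not equal to any annotated one. The exchanged entry had 12 counts (0.376 CPM) with sh-WDR4-2 and 24 (0.552 CPM) with sh-NC in HCC-LM3 cells, and 16 (0.469 CPM) with sh-WDR4-2 and 10 (0.273 CPM) with sh-NC in Huh-7 cells. Its ratios, 0.681 (0.310 to 1.42) and 1.72 (0.733 to 4.23), have intervals that include 1.

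For CXCL8, which encodes interleukin-8, the reading decides whether the gene was expressed at all. The entry named CXCL8 had 641 counts (20.1 CPM) with sh-WDR4-2, against 711 (16.4 CPM) with sh-NC, in HCC-LM3 cells. The Huh-7 libraries had 1860 counts (54.5 CPM) with sh-WDR4-2, against 1839 (50.2 CPM) with sh-NC. The ratios were 1.23 (1.10 to 1.37) in HCC-LM3 and 1.09 (1.02 to 1.16) in Huh-7 cells, above 1 in both lines. The exchanged entry had 10 counts (0.313 CPM) with sh-WDR4-2 and 4 (0.0920 CPM) with sh-NC in HCC-LM3 cells. It had 2 counts (0.0586 CPM) with sh-WDR4-2 and 8 (0.218 CPM) with sh-NC in Huh-7 cells. From these few counts the ratios were 3.40 (0.982 to 14.9) in HCC-LM3 and 0.268 (0.0278 to 1.34) in Huh-7 cells, on opposite sides of 1 with intervals that include it.

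CCL2, the monocyte attractant, was detected in HCC-LM3 cells and hardly in Huh-7 cells. It had 42 counts (1.32 CPM) with sh-WDR4-2 and 81 (1.86 CPM) with sh-NC in HCC-LM3 cells, and 2 counts in each Huh-7 library (0.0586 CPM with sh-WDR4-2 and 0.0546 CPM with sh-NC). The HCC-LM3 ratio of sh-WDR4-2 over sh-NC was 0.706 (0.474 to 1.04). CCL20 had 0 counts in 3 libraries and 6 counts (0.164 CPM) in the Huh-7 sh-NC library. With the 0 of the Huh-7 sh-WDR4-2 library set at the floor its Huh-7 ratio was 0.537, and the counting interval, 0 to 0.912, rests on those 6 counts.

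Of the IL-6 family, IL6 itself was seen in Huh-7 cells. It had 163 counts (4.78 CPM) with sh-WDR4-2 and 156 (4.26 CPM) with sh-NC in Huh-7 cells, and 2 and 5 counts (0.0626 and 0.115 CPM) in the HCC-LM3 sh-WDR4-2 and sh-NC libraries. The ratio of sh-WDR4-2 over sh-NC was 0.545 (0.0519 to 3.33) in HCC-LM3 and 1.12 (0.895 to 1.41) in Huh-7 cells.

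IL11, an IL-6 family cytokine with its own receptor chain IL11RA, was low in both lines. It had 27 counts (0.846 CPM) with sh-WDR4-2 and 31 (0.713 CPM) with sh-NC in HCC-LM3 cells, and 80 (2.34 CPM) with sh-WDR4-2 and 111 (3.03 CPM) with sh-NC in Huh-7 cells. The ratios were 1.19 (0.681 to 2.05) in HCC-LM3 and 0.774 (0.573 to 1.04) in Huh-7 cells, and both intervals include 1.

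LIF, which signals through LIFR and IL6ST, was the best measured of the 8 genes in order. It had 366 counts (11.5 CPM) with sh-WDR4-2 and 508 (11.7 CPM) with sh-NC in HCC-LM3 cells. The Huh-7 libraries had 825 counts (24.2 CPM) with sh-WDR4-2 and 1023 (27.9 CPM) with sh-NC. The ratio was 0.981 (0.855 to 1.12) in HCC-LM3 and 0.866 (0.789 to 0.950) in Huh-7 cells, where the interval lies below 1.

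Per length, LIF led in both lines among the 8 genes in order. In HCC-LM3 cells it had 3.16 FPKM with sh-WDR4-2 and 3.23 FPKM with sh-NC, followed by CCL2 (1.88 and 2.67 FPKM), CXCL2 (1.31 and 1.12 FPKM) and IL11 (0.395 and 0.333 FPKM), sh-WDR4-2 before sh-NC each time, with no overlap between neighbours over the libraries. In Huh-7 cells LIF had 5.81 FPKM with sh-WDR4-2 and 6.72 FPKM with sh-NC, followed by IL6 (4.07 and 3.64 FPKM), and then by IL11 (0.954 and 1.23 FPKM) and CXCL2 (0.681 and 0.973 FPKM), again sh-WDR4-2 before sh-NC, and the ranges of IL11 and CXCL2 overlap.

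None of the 10 genes passed 2-fold between sh-WDR4-2 and sh-NC in either line, on the log2(CPM + 0.5) scale, as deposited or exchanged back. Entries at or under the floor in both libraries had no ratio. Under 0.5 CPM this scale holds values near 0: the exchanged CXCL8 entry, at ratios of 3.40 and 0.268, gave 0.46 and −0.36. Of the genes at 1 CPM or more, 0.260% of 12683 passed 2-fold in HCC-LM3 cells and 0.109% of 11971 in Huh-7 cells. A count of 0 among so few genes is therefore no result about them. A counting interval that leaves out a ratio of 1 was found for 2 of 5 expressed entries in HCC-LM3 cells, CXCL3 and CXCL8, against 42.1% of all genes. In Huh-7 cells it was found for 3 of 6, CXCL3, CXCL8 and LIF, against 30.1% of all genes. Exchanged back, LIF in Huh-7 cells remained as the one such gene at 1 CPM or more.

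**Figure D3:**
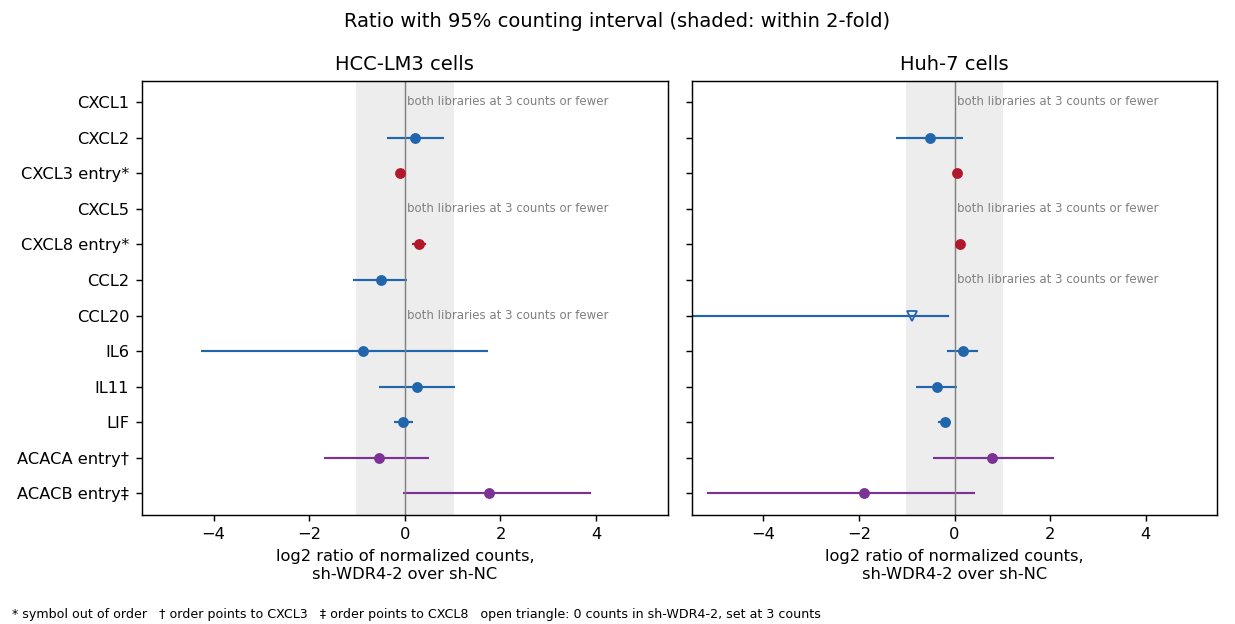
Log2 ratio of normalized counts of sh-WDR4-2 over sh-NC in HCC-LM3 cells (left) and Huh-7 cells (right), with 95% counting intervals as bars and the range within 2-fold shaded. Red marks the entries named CXCL3 and CXCL8, purple the entries exchanged back, and an open triangle a ratio with 0 counts set at 3 counts. LIF, CXCL3 and CXCL8 have narrow intervals near 0, such as 0.789 to 0.950 for the LIF ratio in Huh-7 cells, while IL6 in HCC-LM3 cells and the exchanged entries span more than 2-fold.

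With both cell lines as repeats, edgeR's quasi-likelihood test with Benjamini-Hochberg adjustment called 0 of the 6 entries that passed the filter of 1 CPM, beside 0.0158% of 12693 genes, of which 2 were higher and 0 were lower. Before adjustment, 277 genes were higher and 371 lower at p under 0.05, and 62 and 90 by DESeq2. LIF had a log2 fold change of −0.13 (SE 0.11, adjusted p = 0.971), with a ratio below 1 in 2 of 2 lines. CXCL2 had −0.12 (SE 0.39, adjusted p = 0.991), IL11 −0.14 (SE 0.35, adjusted p = 0.988) and IL6 0.09 (SE 0.37, adjusted p = 0.992) in the same edgeR fit. The entry named CXCL8 had the lowest p of the 6, with a log2 fold change of 0.20 (SE 0.09, edgeR unadjusted p = 0.0325, adjusted p = 0.968), and the entry named CXCL3 had −0.02 (SE 0.05, adjusted p = 0.988). The spread in this fit rests on 1 residual degree of freedom per gene and on what is shared across genes.

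Between the lines the differences were large. In an edgeR fit with the shRNA as a term, 38.9% of 12693 genes were called higher and 38.9% lower in HCC-LM3 than in Huh-7 cells, and 5 of the 6 entries tested were called lower, or 3 of 4 without the entries named CXCL3 and CXCL8. Without TMM the calls were 6287 higher and 3721 lower, in place of 4941 and 4940. The libraries of a line differ in the hairpin and are not repeats of 1 condition. Of the entries tested, IL6 was lower in HCC-LM3 cells by the widest margin, with a log2 fold change of −5.55 (SE 0.46, edgeR adjusted p = 4.44e-09). Within the sh-WDR4-2 libraries its ratio of HCC-LM3 over Huh-7 was 0.0131 (0.00158 to 0.0481), and within the sh-NC libraries 0.0270 (0.00865 to 0.0644). IL11 was lower in HCC-LM3 cells with a log2 fold change of −1.79 (SE 0.36, edgeR adjusted p = 1.80e-04), and LIF with −1.17 (SE 0.11, edgeR adjusted p = 2.09e-08). With 38.9% of all genes called lower, a lower level in HCC-LM3 cells is no trait particular to these 3 genes.

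CXCL2 was not called between the lines, with a log2 fold change of 0.35 (SE 0.39, edgeR adjusted p = 0.415), and its ratio of HCC-LM3 over Huh-7 was 1.67 (1.04 to 2.74) within sh-WDR4-2 and 1.01 (0.669 to 1.52) within sh-NC. CCL2 ran the other way from the IL-6 family: it was higher in HCC-LM3 cells, by 22.4-fold (5.84 to 191) within sh-WDR4-2 and 34.1-fold (9.15 to 287) within sh-NC, and the width of both intervals comes from the 2 counts in each Huh-7 library. Its mean over the 4 libraries was under 1 CPM, and without that filter edgeR gave a log2 fold change of 4.73 (SE 0.74, adjusted p = 1.91e-07), where 34.3% of 16577 genes were called higher. The entries named CXCL3 and CXCL8 had log2 fold changes of −1.06 (SE 0.05, edgeR adjusted p = 4.26e-12) and −1.53 (SE 0.09, edgeR adjusted p = 1.98e-11). Exchanged back, and without the filter, they had 0.35 (SE 0.81, edgeR adjusted p = 0.713) and 0.42 (SE 1.36, edgeR adjusted p = 0.797), so that neither call held. The ratio of HCC-LM3 over Huh-7 for the exchanged CXCL8 entry was 5.35 (1.14 to 50.2) within sh-WDR4-2, from 10 against 2 counts, and 0.421 (0.0929 to 1.57) within sh-NC.

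The receptors divided by family. CXCR1 and CXCR2, the receptors of the neutrophil attractants, and ACKR1, a decoy receptor, had 0 counts in all 4 libraries, and CCR2 and CCR6 had at most 2. All 4 receptor chains of the IL-6 family were expressed. LIFR had 6074 counts with sh-WDR4-2 and 8789 with sh-NC in HCC-LM3 cells, and 12663 with sh-WDR4-2 and 13762 with sh-NC in Huh-7 cells. It was lower in HCC-LM3 than in Huh-7 cells (log2 fold change −0.93, edgeR adjusted p = 5.99e-12), as was the shared chain IL6ST (−0.76, adjusted p = 7.16e-10). IL6R (0.48, edgeR adjusted p = 8.34e-04) and IL11RA (1.62, edgeR adjusted p = 1.14e-05) were higher in HCC-LM3 cells. Between sh-WDR4-2 and sh-NC, 0 of the 4 chains passed 2-fold in either line, and the largest log2 ratio was −0.44 (−0.73 to −0.15) for IL11RA in HCC-LM3 cells.

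Of the signal carriers below these receptors, 11 of 12 were expressed, and 4 were called higher and 6 lower in HCC-LM3 than in Huh-7 cells, a balance that turned to 5 higher and 3 lower without TMM. Over all genes tested, 38.9% were called in each direction. STAT3, the main carrier of gp130 signals, was lower in HCC-LM3 cells (log2 fold change −0.53, edgeR adjusted p = 2.87e-08). SOCS3, a feedback inhibitor induced by STAT3, had a log2 ratio of −0.22 (−0.38 to −0.06) with sh-WDR4-2 in HCC-LM3 cells and one of −0.02 in Huh-7 cells, and it was higher in HCC-LM3 than in Huh-7 cells (log2 fold change 0.36, edgeR adjusted p = 0.00995). The acute-phase genes, on which IL6 acts in the liver, were mostly silent: CRP, LBP, HAMP and ORM1 had 0 counts in all 4 libraries and 2 of 19 passed the filter. The complement component C3 was the one gene of that list at 5 CPM or more, with 1998 counts with sh-WDR4-2 and 2732 with sh-NC in HCC-LM3 cells, and 15883 with sh-WDR4-2 and 18618 with sh-NC in Huh-7 cells. C3 was lower in HCC-LM3 cells (log2 fold change −2.96, edgeR adjusted p = 5.57e-18), while ITIH4, the other acute-phase gene that passed the filter, was higher (3.39, edgeR adjusted p = 1.19e-06).

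All 15 NF-κB subunits, kinases and adaptors on the list were expressed in both lines and more were lower than higher in HCC-LM3 cells. Of these 15, 10 were called lower and 3 higher in HCC-LM3 than in Huh-7 cells, beside 38.9% of all genes called in each direction. Without TMM 8 were called lower and 4 higher. The median log2 fold change was −0.62, beside 0.01 over all genes tested. The 3 called higher were TAB1 (0.58), MAP3K7 (0.32) and TRAF6 (0.30). RELB (−3.64, edgeR adjusted p = 1.78e-13) and NFKB2 (−1.98, adjusted p = 4.98e-14), the pair of the alternative NF-κB pathway, were lower, as were the adaptors MYD88 (−3.09, adjusted p = 1.35e-05) and TRAF2 (−1.65, adjusted p = 8.72e-11). Of 14 NF-κB inhibitors and feedback targets, 9 were called lower and 4 higher, with a median of −0.62. The 4 called higher were TRAF1 (1.32), NFKBIA (1.02), CYLD (0.53) and BIRC3 (0.35). ICAM1, an adhesion molecule for leukocytes and an NF-κB target, had 6 and 17 counts in the HCC-LM3 sh-WDR4-2 and sh-NC libraries and 1434 and 1872 in the Huh-7 ones (log2 fold change −7.27, edgeR adjusted p = 1.48e-16). NFKBIZ, which encodes a nuclear cofactor needed for IL6 induction, was lower as well (−1.79, edgeR adjusted p = 9.23e-11).

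With sh-WDR4-2, no gene of these 2 lists at 1 CPM or more passed 2-fold in either line on the log2(CPM + 0.5) scale. Over the inhibitors and feedback targets, 11 of 13 expressed genes had a positive log2 fold change in HCC-LM3 cells (median 0.10) and 5 of 13 in Huh-7 cells (median −0.01), where the median over all genes was 0.00 in each line. The largest in HCC-LM3 cells were NFKBIE (log2 ratio 0.41, interval 0.13 to 0.68), NFKBIZ (0.34, 0.11 to 0.57), TNIP1 (0.33, 0.25 to 0.40) and IER3 (0.33, 0.23 to 0.44). In Huh-7 cells BCL3 had a log2 ratio of −0.32 (−0.39 to −0.24) and ICAM1 −0.28 (−0.38 to −0.18). Of the 15 subunits and kinases, 8 were higher and 7 lower in HCC-LM3 cells (median 0.03), and 10 higher and 5 lower in Huh-7 cells (median 0.06). Among them IKBKG, the regulatory subunit of the IκB kinase, had a log2 ratio of 0.43 (0.26 to 0.61) in HCC-LM3 and 0.33 (0.18 to 0.49) in Huh-7 cells. Over both lines IKBKG was not called, with a log2 fold change of 0.38 (SE 0.11, edgeR adjusted p = 0.727). MYD88, at a lower level, had a log2 ratio of 0.73 (0.42 to 1.04) in HCC-LM3 and −0.07 (−0.18 to 0.03) in Huh-7 cells.

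AP-1 and C/EBP factors, which act beside NF-κB on CXCL8, IL6 and IL11, held some of the larger differences with sh-WDR4-2, and none passed 2-fold. Of the 12 factors, 7 were higher and 5 lower in HCC-LM3 cells (median 0.10), and 4 higher and 8 lower in Huh-7 cells (median −0.04). In HCC-LM3 cells FOSB had a log2 ratio of 0.72 (0.50 to 0.94), ATF3 0.58 (0.43 to 0.74) and FOS 0.52 (0.47 to 0.58), all immediate early genes. In the same cells JUND had −0.29 (−0.35 to −0.24) and JUNB −0.02. FOS had 5071 counts with sh-WDR4-2 and 4807 with sh-NC in HCC-LM3 cells, although the first library is the smaller one, and 1881 with sh-WDR4-2 and 2106 with sh-NC in Huh-7 cells. In Huh-7 cells JUN had a log2 ratio of 0.31 (0.22 to 0.39) and CEBPB −0.33 (−0.38 to −0.28). The HCC-LM3 sh-WDR4-2 library was the one on lane 4, so lane and hairpin cannot be told apart in that line. Between the lines 3 of 12 factors were called higher and 8 lower in HCC-LM3 cells, beside 38.9% of all genes called in each direction. FOSL1 (−3.52, edgeR adjusted p = 1.65e-13) and CEBPA (−3.30, edgeR adjusted p = 5.28e-15) were the lowest, and FOSB (2.08, edgeR adjusted p = 4.58e-08) was the highest.

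Factors that control the decay of mRNAs with AU-rich elements, as cytokine mRNAs are, stayed within 2-fold between sh-WDR4-2 and sh-NC in both lines, with medians of 0.02 in HCC-LM3 cells and −0.02 in Huh-7 cells. ZFP36, which encodes tristetraprolin, a decay factor of such mRNAs, had a log2 ratio of 0.26 (0.04 to 0.48) in HCC-LM3 cells and one of −0.02 in Huh-7 cells. It was lower in HCC-LM3 than in Huh-7 cells (−2.33, edgeR adjusted p = 8.86e-13). Of 11 tested, 8 were called lower and 1 higher in HCC-LM3 cells, and 6 lower and 3 higher without TMM, beside 38.9% of all genes called in each direction.

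Most other chemokines were silent too. Without CXCL11 and CX3CL1, whose symbols stood out of order, CXCL16 and CCL28 were the 2 of 19 other chemokines with a mean of 1 CPM or more over the 4 libraries, and CCL28, which attracts lymphocytes at mucosal surfaces, had 4 and 18 counts in the HCC-LM3 sh-WDR4-2 and sh-NC libraries and 331 and 332 in the Huh-7 ones (log2 fold change −5.02, edgeR adjusted p = 1.57e-09). CCL5, a T-cell attractant, showed the pattern of CCL2, with 56 and 74 counts in the HCC-LM3 libraries and 0 in both Huh-7 libraries. Of the 20 other cytokines, 10 in order passed that filter. MIF, the macrophage migration inhibitory factor, had 14525 counts with sh-WDR4-2 and 18378 with sh-NC in HCC-LM3 cells, and 14377 with sh-WDR4-2 and 15509 with sh-NC in Huh-7 cells. TNF, an inducer of NF-κB, had at most 2 counts in any library, and IL1B had 84 and 113 counts in the HCC-LM3 sh-WDR4-2 and sh-NC libraries and 13 and 34 in the Huh-7 ones (log2 fold change 2.01, edgeR adjusted p = 1.75e-04). IL32 had 27 and 72 counts in the HCC-LM3 sh-WDR4-2 and sh-NC libraries and 5992 and 5990 in the Huh-7 ones (log2 fold change −7.02, edgeR adjusted p = 8.11e-06). With sh-WDR4-2, 0 of the 10 other cytokines measured in order passed 2-fold in HCC-LM3 cells and 0 of 7 in Huh-7 cells.

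**Figure D4:**
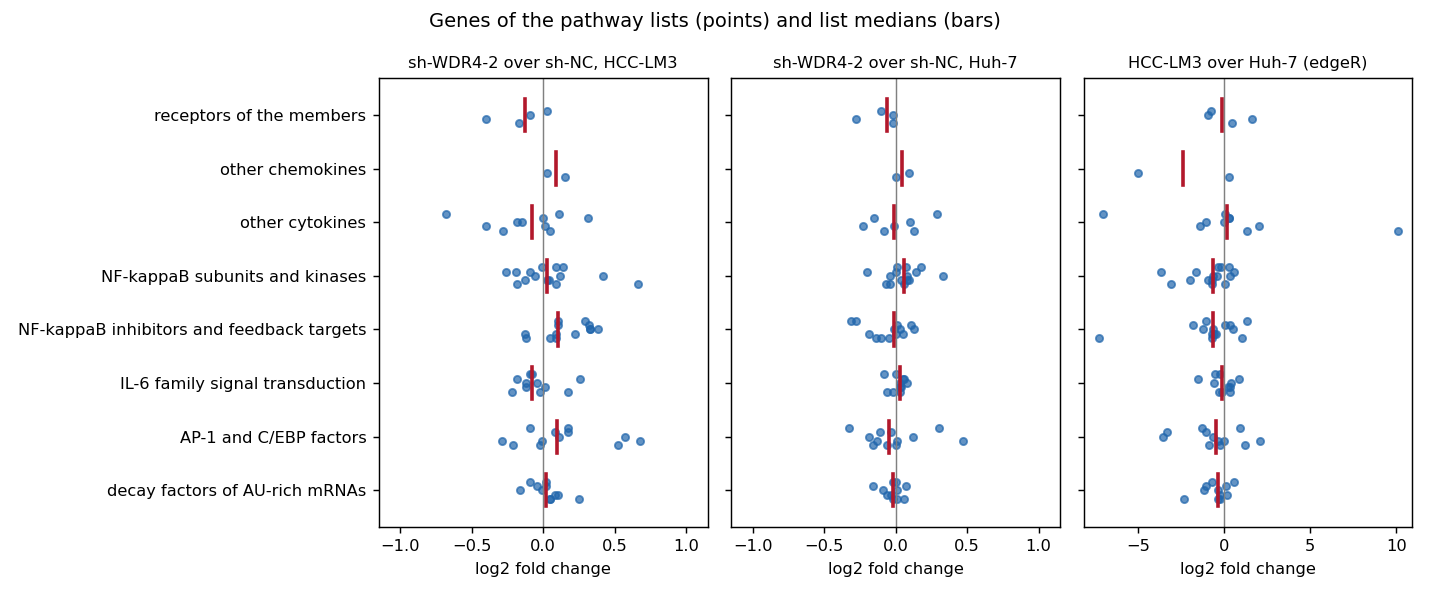
Log2 fold changes of the genes of 8 pathway lists, without symbols out of order, for sh-WDR4-2 over sh-NC in HCC-LM3 cells (left), sh-WDR4-2 over sh-NC in Huh-7 cells (middle) and HCC-LM3 over Huh-7 cells by edgeR (right), with 1 point per gene of at least 1 CPM and a red bar at the list median. With the hairpin every point lies within 1 of 0, with FOSB at 0.68 in HCC-LM3 cells, while between the lines points reach −7.27 for ICAM1.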

How the data were processed

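RNA-seq of 4 libraries was analysed, 1 per cell line and shRNA. The authors deposited 1 table that gives, for each gene symbol, raw counts and FPKM. In these deposited FPKM a count is divided by a transcript length and by the library total, and they were used for levels per length and to read back that length. Bowtie 0.12.2 is listed in the submitters' processing notes with the builds mm8 and mm9, both of mouse, although the cells are human, and the kit differs between the labels (TruSeq) and the methods (VAHTS), so the aligner and annotation behind the counts are uncertain. Totals ran from 29807047 to 40572251 counts, and 2648 of 19225 entries had 0 counts in all libraries. No entry was without a symbol.

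Counts were normalized by TMM (factors 0.933 to 1.07). Within a line, log2 ratios of CPM + 0.5 were taken for genes averaging 1 CPM or more, and ratios of normalized counts, with no pseudocount, carry an exact conditional binomial interval (95%) and no p-value. A floor of 3 counts stands for 0. The effect of the hairpin over both lines (cell line as a block, shared by both libraries of a pair) and the difference between the lines (shRNA as a term) were tested with edgeR 4.0.16 in R 4.3.3 (robust quasi-likelihood, Benjamini-Hochberg over all genes tested), tested on simulated data, with DESeq2 1.42.0, other size factors, filters, pseudocounts and thresholds as alternatives. Python 3.11.15 with scipy 1.17.1, pandas 2.3.3 and numpy 2.4.6 gave the other values, and matplotlib 3.10.9 the plots. The order of entries was compared with a Python dictionary of 32768 places, with up to 12 places tried per symbol. Gene positions and transcripts are from GENCODE 29 and promoters from RefSeq (GRCh38.p14).

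The 10 genes and the 12 gene lists beside them were chosen with earlier results of these data known. All 10 genes are given, and of each list up to 4 genes per comparison, those of at least 5 CPM with the largest change. Those named at lower counts, and IL11RA, IL1B, CCL5 and APOA1, were picked once their values had been seen. The same holds for the NF-κB list genes named as called higher in HCC-LM3 than in Huh-7 cells. The sequence of the hairpin was not used here. Of the genes named by the rule, 1 is not reported here.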

Additional observations from a re-analysis of the deposited data

Results flagged for a closer look

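The entry named CXCL3 had ratios of sh-WDR4-2 over sh-NC on opposite sides of 1, 0.935 in HCC-LM3 cells and 1.04 in Huh-7 cells, each with a counting interval that leaves out 1. The difference between the lines was not tested, since each line has 1 library per hairpin. The length of this entry is close to that of the longest ACACA transcript.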

How the results depend on the processing

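Of the values for single genes and CXCL sums recomputed under other settings, 131 kept their sign and their call or stayed within the error, 2 more changed sign within the error, 10 moved without a change of sign and 3 reversed. Counts of genes are not among these values and are given next. The count of genes past 2-fold depended on the settings: in HCC-LM3 cells it was 33, against 59 with a pseudocount of 0.1 CPM, 50 without the filter, 12 at a mean of 10 CPM and 233 at 1.5-fold. In Huh-7 cells it was 13, against 26 with a pseudocount of 0.1 CPM, 7 with 1 CPM, 26 without the filter, 1 at a mean of 10 CPM and 112 at 1.5-fold. The edgeR count over both lines was 2, against 11 without the filter (7 higher and 4 lower) and 0 with no replicate block, where the entry named CXCL3 had a log2 fold change of 0.00 in place of −0.02. DESeq2 gave −0.08 for IL6 over both lines in place of 0.09, and the exchanged entry gave −0.36 for CXCL8 in Huh-7 cells in place of 0.12. The causes of the CXCL3 and IL6 changes were not tested. Exchange moved CXCL3 to −0.26 in HCC-LM3 cells, in place of −0.10, and to 0.33 in Huh-7 cells, in place of 0.05, and CXCL8 to 0.46 in HCC-LM3 cells, in place of 0.29. Without TMM the median log2 fold change of HCC-LM3 over Huh-7 moved to 0.21 from 0.01, and the called genes to 6287 higher and 3721 lower, in place of 4941 and 4940; the calls of LIF, IL6 and IL11 held. Without TMM the NF-κB subunits and kinases had 4 called higher and 8 lower, the NF-κB inhibitors and feedback targets 5 and 9, the AP-1 and C/EBP factors 4 and 6, and the decay factors 3 and 6. Low counts limit CXCL1, CXCL5, CCL20 and the exchanged entries.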

Other observations

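Among genes outside the inflammatory lists, markers of matrix-producing cells differed between the lines. DCN, which encodes the matrix proteoglycan decorin, had 493 and 531 counts in the HCC-LM3 sh-WDR4-2 and sh-NC libraries, against 0 and 4 in the Huh-7 ones, and CDH5, an endothelial cadherin, had 366 and 467 against 73 and 53. RBP4, the retinol carrier secreted by hepatocytes, had 0 counts in both HCC-LM3 libraries, against 1276 and 1519 in the Huh-7 sh-WDR4-2 and sh-NC libraries. The keratins KRT8 and KRT18 were lower in HCC-LM3 than in Huh-7 cells, with log2 fold changes of −2.18 (edgeR adjusted p = 1.30e-07) and −1.36 (edgeR adjusted p = 8.05e-10). The entries named APOB, AHSG and APOA1, further hepatocyte markers, had between 2869 and 15228 counts in every library, and all 3 symbols stood out of the order of the table. Whether HCC-LM3 and Huh-7 libraries correspond to their labelled lines was not tested.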
